A study of Mus musculus with 2 samples.

Results

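Six-family genes encode transcription factors of the sine oculis homeobox family, and 5 of them, Six2, Six3, Six4, Six5 and Six6, were looked up in a genome-wide list of H3K27me3 regions from mouse rib chondrocytes. Every row of the list that names one of these genes was taken. Of the 2017 regions in the list, 7 did so, with 4 at Six3, 2 at Six2 and 1 at Six6, whereas no row named Six4 or Six5. Thus 3 of the 5 genes had a region. Of 21900 protein-coding genes in RefSeq, 3.9% were named, the list naming a gene when a region lies within 5000 bp of it. The 5 genes were chosen with this list known, so the count is a description.

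H3K27me3, histone H3 carrying 3 methyl groups on lysine 27, was measured by chromatin immunoprecipitation followed by sequencing (ChIP-seq), in which DNA bound to the marked histone is pulled down with an antibody and set against input DNA that was not pulled down. The cells were chondrocytes of wild-type CD1 mice at age p2.5, isolated from the ribs of 11 animals and cultured overnight in DMEM with penicillin/streptomycin and 5% FCS. There was 1 ChIP library and 1 input library with no replicates, so every interval given here covers the counting of tags (mapped reads) only, not the variation between cultures or animals. The listed regions held 143822 ChIP and 19260 input tags, and the list does not give the total depth of the libraries. Among markers of cell types, 0 of 9 chondrocyte genes (Col2a1, Acan, Sox9, Matn1, Matn3, Comp, Col9a1, Col11a1 and Hapln1), 0 of 3 muscle genes and 0 of 2 blood genes were named by a region, whereas 1 of 3 fibroblast genes, Col1a1, had a region (52 ChIP and 2 input tags). At a share of 3.9% over all protein-coding genes, lists this short would often hold no named gene. The counts therefore check neither the cell type nor which other cells the culture held.

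PRC2 places H3K27me3 on the chromatin of silent genes, and transcription factors that control other lineages are its best known targets. Six-family proteins bind DNA through a homeodomain and bind partners through a neighbouring conserved domain, among them the Eya coactivators and the Groucho corepressors. Six3 and Six6 are known from the forebrain and the eye, Six2 from the progenitor cells of the kidney, and Six4 from skeletal muscle, while Six5 lies beside Dmpk, the gene affected in myotonic dystrophy.

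The genes differed in where the listed regions lay relative to the start site. The list gives no signal outside its regions, so a gap between regions does not show that the mark was absent there. The Six6 region covered the start, the starts of Six3 and Six2 lay in gaps between regions, and Six5 had no region, and the sequence before these 4 starts is therefore shown. Each is the 250 bases before the start annotated in RefSeq (GRCm38.p6), written 5′ to 3′ on the strand of the gene with each CG dinucleotide in capitals. They lie at chr12:72939632-72939881 (plus strand) for Six6, chr17:85620584-85620833 (plus strand) for Six3, chr17:85688255-85688504 (minus strand) for Six2 and chr7:19094294-19094543 (plus strand) for Six5. The regions of the list are on build mm9, so these positions cannot be set against them directly, and no conversion between the builds was made.
Six6: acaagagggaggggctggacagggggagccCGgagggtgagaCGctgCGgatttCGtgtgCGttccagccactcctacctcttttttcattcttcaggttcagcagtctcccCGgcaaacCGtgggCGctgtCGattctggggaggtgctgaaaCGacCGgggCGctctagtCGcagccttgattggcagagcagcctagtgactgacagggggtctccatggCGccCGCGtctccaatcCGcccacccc
Six3: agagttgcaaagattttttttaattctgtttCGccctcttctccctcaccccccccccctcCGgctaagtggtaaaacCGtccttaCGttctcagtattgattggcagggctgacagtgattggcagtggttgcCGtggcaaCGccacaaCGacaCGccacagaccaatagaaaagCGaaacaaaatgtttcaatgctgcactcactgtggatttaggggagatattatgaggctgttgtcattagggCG
Six2: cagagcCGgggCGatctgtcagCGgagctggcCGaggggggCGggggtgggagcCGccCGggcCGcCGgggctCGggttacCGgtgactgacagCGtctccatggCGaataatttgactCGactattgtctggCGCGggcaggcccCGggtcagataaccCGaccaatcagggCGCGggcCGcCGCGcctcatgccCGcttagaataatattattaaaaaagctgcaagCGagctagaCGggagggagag
Six5: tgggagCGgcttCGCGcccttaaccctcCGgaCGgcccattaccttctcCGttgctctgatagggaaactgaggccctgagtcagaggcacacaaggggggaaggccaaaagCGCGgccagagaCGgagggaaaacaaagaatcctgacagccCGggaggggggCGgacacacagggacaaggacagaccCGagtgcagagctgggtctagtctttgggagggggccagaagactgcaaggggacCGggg

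CG-rich sequence is a known feature of PRC2 targets in mammals. The Six2 window held 26 CG dinucleotides and the Six6 window 17, whereas the Six3 window held 10 and the Six5 window 13. Six4 has 2 annotated starts, whose overlapping windows held 13 and 15. Over 21263 windows of protein-coding genes the median was 10, and over the 806 windows of protein-coding genes named in the list it was 13. The 21263 windows came from 17492 of the 21900 protein-coding genes, so some genes have none and others several. The 806 are fewer than the 855 named protein-coding genes, so not every named gene has a window. Of all these windows, 12.3% held at least as many as Six2, 31.4% at least as many as Six6 and 50.1% at least as many as Six3. The gene with the most regions, Six3, had the fewest CG dinucleotides before its start, and Six5, with no region, lay at the median of the named genes. By the listed distances, the nearest region upstream of the start lay 301 bp away at Six3 and 1437 bp away at Six2. The sequence directly before these starts was therefore in gaps between regions, and CG dinucleotides within the regions were not counted. Whether CG content is related to the listed regions was not tested. The letters GCCAT, part of the motif bound by YY1, were searched on both strands and occurred at Six2, Six6 and in both windows of Six4, but not at Six3 or Six5, and 30.1% of all windows hold them. A match is a description of the sequence only.

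The Six3 and Six2 genes lie tail to tail on chromosome 17, and regions were found both at the genes and between them. The distances in the list place the 5′ end of Six3 at 86020174 and its 3′ end at 86025530, and the 5′ end of Six2 at 86087594 and its 3′ end at 86083608, so that the starts are 67420 bp apart and the genes point towards each other. From the first Six3 region to the last Six2 region, a stretch of 76250 bp held 13 regions, which covered 22349 bp or 29.3% of it, the widest gap being 26797 bp. Of these, 6 named Six3 or Six2 and the other 7 named no gene. Over the whole list, 1284 of the 2017 regions named a gene, so regions without a name were common.

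**Figure D1:**
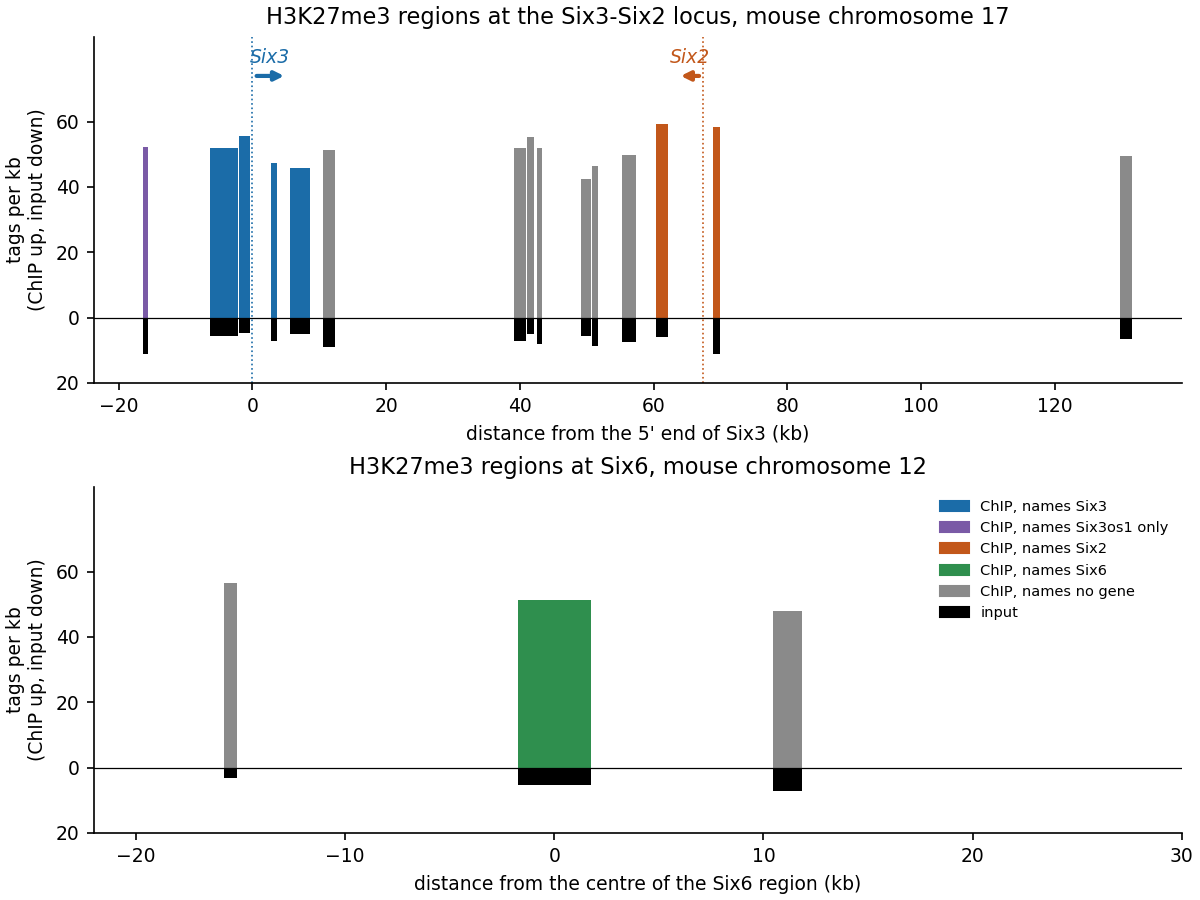
ChIP tags per kb (upward bars) and input tags per kb (black, downward) in each listed region within 100000 bp of a region that names a Six-family gene, by distance in kb from the 5′ end of Six3 (top) and from the centre of the Six6 region (bottom). Bar width is the length of the region, arrows show Six3 and Six2 from their 5′ to their 3′ end, and dotted lines mark their 5′ ends, which lie in gaps of 3004 and 6700 bp between regions.

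Six3, a repressor of Wnt genes in the developing forebrain, had the most marked sequence of the 5 genes, with 9837 bp in 4 regions. The region at chr17:86013863-86017992 held 214 ChIP and 23 input tags and ended 2182 bp before the start of the gene. The next, chr17:86018218-86019873, held 92 and 8 and ended 301 bp before the start. These upstream regions were only 225 bp apart, and in the list both also overlapped Six3os1, the transcript on the opposite strand. For both, the listed distance to the 5′ end of Six3os1 was 0 bp. ChIP tags carry no information on the strand of a gene, so the signal cannot be divided between Six3 and Six3os1.

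Within Six3 itself lay chr17:86022878-86023870, with 47 ChIP and 7 input tags, which the list also named for Six3os1 at a distance of 4127 bp, and past its 3′ end, at a distance of 264 bp, lay chr17:86025794-86028851, with 140 and 15. The first of these was the weakest of the 7 regions, with a height of 8.03 at the highest point of the smoothed profile, where the list begins at 8.0. Between it and the upstream pair, 3004 bp around the start of Six3 were not in any region. A listed region within 2500 bp of the 5′ end was found for 2.2% of protein-coding genes and for Six3, Six2 and Six6. Summed over its 4 regions, Six3 had 493 ChIP and 53 input tags, which gave a ratio of 9.30 (interval 7.0 to 12.6, 95% by the Clopper-Pearson method). Of the 922 genes named in the list, 17 had more bp in regions, 19 more ChIP tags and 30 more regions than Six3.

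Six2, which keeps the progenitors of the nephron from differentiating, had 2890 bp in 2 regions, neither of which overlapped the gene (2.53% of protein-coding genes were overlapped by a region, and so were Six3 and Six6). The region at chr17:86080523-86082330 held 107 ChIP and 11 input tags and lay 1278 bp past the 3′ end, and chr17:86089031-86090112 held 63 and 12 and lay 1437 bp upstream of the start. The gene thus sat in a gap of 6700 bp between them. The summed ratio was 7.39 (170 ChIP and 23 input tags, interval 4.77 to 12). The upstream region had more input than the other 6, with 11.1 input tags per kb against 4.83 to 7.05, and it was the only one of the 7 in which measured input, not a fixed floor of 9.20 tags per kb, was the divisor of the listed enrichment. Its ratio of 5.25 was the lowest of the 7, although its interval of 2.80 to 10.7 overlapped those of all the others. Of the 922 genes named in the list, 238 had more bp in regions than Six2.

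The 7 regions that named no gene lay between the 3′ ends of Six3 and Six2, which are 58077 bp apart, and the list ties none of them to a gene within 5000 bp. They formed 1 region just past Six3 at chr17:86030774-86032528, with 90 ChIP and 16 input tags, a group of 3 and a pair further along, and 1 at chr17:86075495-86077482, with 99 and 15, near Six2. The group of 3 ran from 86059326 to 86063415 with gaps of 177 and 375 bp and held 93, 56 and 38 ChIP tags. Together the 7 held 479 ChIP and 71 input tags with a ratio of 6.75 (interval 5.25 to 8.78). The 6 regions named for Six3 or Six2 had 8.72 (interval 6.87 to 11.2), so that the intervals overlapped. A ChIP height of at least 10 was reached by 3 of the 7 unnamed regions, up to 10.5, and by 0 of the 6 named ones, up to 9.73. Over the whole list 13.1% of regions reached this height. The other 4 unnamed regions, from 8.05 to 8.60, were lower than 5 of the 6 named ones, so that the 2 sets overlapped in height.

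Outside the stretch, a region named for Six3os1 alone (chr17:86003862-86004568, 37 ChIP and 8 input tags) lay 9295 bp before the first Six3 region, and an unnamed one (chr17:86149960-86151777, 90 and 12) lay 59848 bp beyond the last Six2 region. Each Six3 and Six2 region had 7 to 11 other listed regions within 50000 bp on either side, where the median over the list was 2 and the highest number 19. At least 11 were counted for 8.28% of listed regions and at least 7 for 15.4%. The crowding at Six3 and Six2 was thus above that of most regions, though not the densest in the list. Regions of the stretch count one another, so these numbers are not separate observations. Some lie as little as 126 bp apart, and splitting a stretch into more regions raises the number.

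Six6, a factor of the retina and the hypothalamus closely related to Six3, showed another layout on chromosome 12. Its single region, chr12:74039601-74043092, was 3492 bp long and overlapped both the gene and its 5′ end. Of all listed regions, 4.56% reached the 5′ end of any gene, among them the upstream pair at Six3, for Six3os1. It held 179 ChIP and 19 input tags with a ratio of 9.42 (interval 5.86 to 16), and its rank of 90 among the 2017 was second to the 55 of the longest Six3 region. The neighbours within 100000 bp named no gene: chr12:74025543-74026178 with 36 ChIP and 2 input tags, 13423 bp before it, and chr12:74051815-74053187 with 66 and 10, 8723 bp after it. With 2 other regions within 50000 bp, Six6 was at the median of the list.

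**Figure D2:**
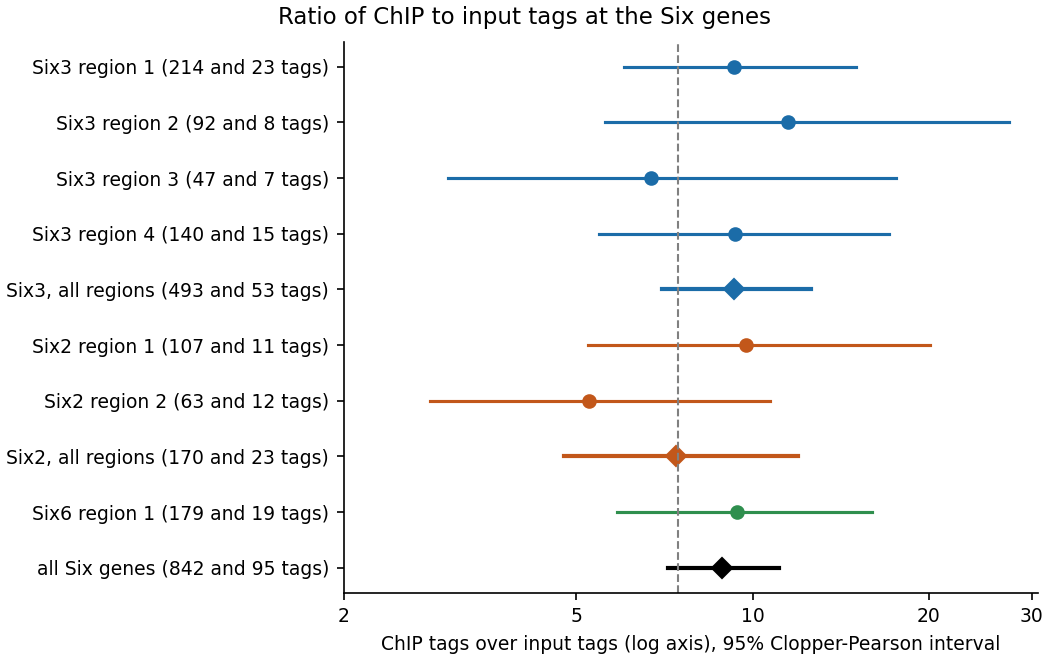
Ratio of ChIP to input tags with its 95% Clopper-Pearson interval (log axis) for each of the 7 Six-family regions (circles, in order of position), for Six3 and Six2 summed over their regions and for all 7 together (diamonds). The dashed line is the 7.46 of the other 2010 regions, and it crosses the interval of every row.

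The ratios of the 7 regions ran from 5.25 to 11.5, and their intervals all overlapped. Over the 7 regions, 842 ChIP and 95 input tags gave 8.86 (interval 7.16 to 11.1), and over the other 2010 regions of the list the ratio was 7.46 (interval 7.35 to 7.57). The ratio at the Six-family genes was thus not distinguishable from that of the rest of the list by counting error. None of these ratios is scaled for depth.

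The 7 regions varied widely in length. The longest Six3 region, with 4130 bp, was longer than 98.2% of listed regions, the Six6 region longer than 96.8%, and the region past the 3′ end of Six3, with 3058 bp, longer than 95.2%. In all, 6 of the 7 were above the median length of 1067 bp and 6 of the 7 above the median of 56 ChIP tags, but only 3 of the 7 were above the median of 54.4 ChIP tags per kb. The region past the 3′ end of Six3 had 45.8 ChIP tags per kb, below which only 3.57% of regions fell, while the Six2 regions had 59.2 and 58.2, higher than 76.5% and 72.0% of regions. The longest regions at Six3 and Six6 thus ranked high in length but below the median in tags per kb. Tags per region follow the length of a region, so the numbers of tags and the ranks were not independent of it.

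**Figure D3:**
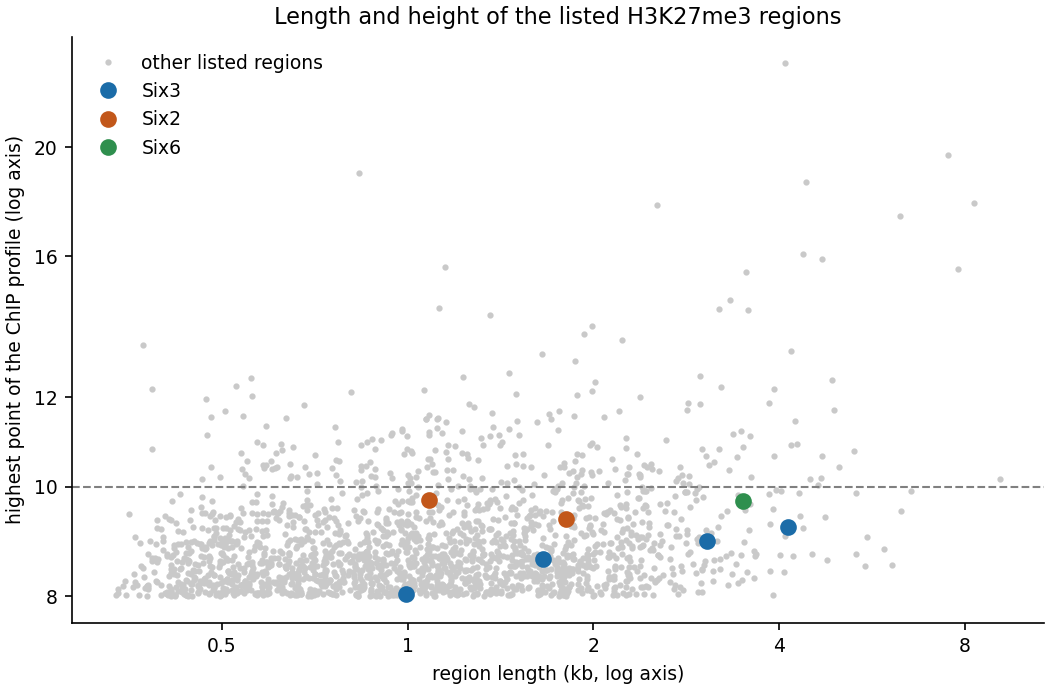
Length (kb, log axis) and highest point of the ChIP profile (log axis) of every listed region, with the regions at Six3, Six2 and Six6 in colour and the others in grey. All 7 lie below the dashed line at a height of 10, between 8.03 and 9.73, while 3 of them are over 3 kb long.

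None of the 7 regions had a height of at least 10, which 264 of the 2017 regions (13.1%) and regions at 0.708% of protein-coding genes reached. With that limit 0 of the 5 genes would have a region. The median height of the list was 8.68, and 5 of the 7 were above it.

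No region named Six4 or Six5. No region of the list was lower than 8.0 or held fewer than 20 ChIP tags. These are the lowest values seen in the list, and the settings used to call regions are not given. Weaker signal may be missing from the list, so the zeros do not show that Six4 and Six5 lacked the mark. Mnat1, which overlaps Six4 in RefSeq, had no region either. Of the 6 nearest protein-coding genes around Six5 in RefSeq order, Rsph6a, Dmwd and Dmpk before it and Bhmg1, Fbxo46 and Qpctl after it, only Rsph6a, the farthest of those before Six5, was named by the list. Under its older symbol Rshl1 it had a region at chr7:19649697-19651108 with 72 ChIP and 7 input tags. The share named over all protein-coding genes was 3.9%, which does not set counts over so few neighbours apart.

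Six-family proteins act in a network with Pax and Eya proteins, and 27 genes of this network and of the tissues it serves were looked up in the same way. A region was listed for 11 of the 27, against the 3.9% of all protein-coding genes. The genes were picked by hand with results of this list known, so the count is a description and not a test of the network.

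**Figure D4:**
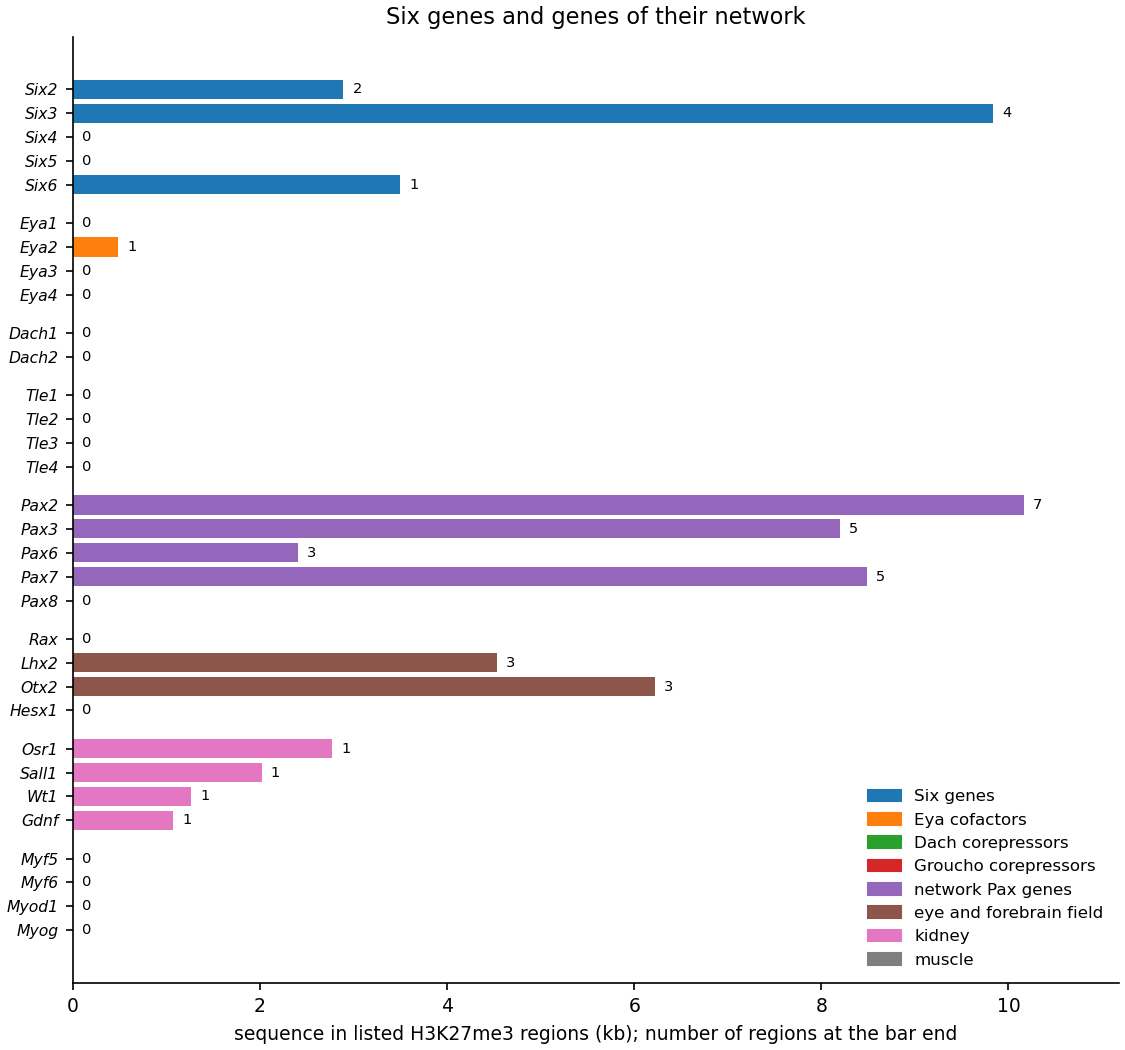
Sequence in listed H3K27me3 regions (kb) at the 5 Six-family genes and at 27 genes of their network, coloured by group, with the number of regions at the end of each bar. Pax2 and Six3 have the longest bars, with 10163 and 9837 bp, and the Dach, Groucho and muscle groups have none.

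Protein partners of the Six-family factors were looked up first. Of the 4 Eya genes, which encode coactivators with a phosphatase domain, only Eya2 had one, a region of 480 bp with 33 ChIP and 3 input tags that lay inside the gene and 43304 bp from its 5′ end. Neither Dach1 nor Dach2, and none of the Groucho genes Tle1 to Tle4, was named. With 3.9% of all protein-coding genes named, most lists of this size would hold few or none, so these counts say nothing particular about the partners.

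The Pax genes, which act above or beside the Six-family genes in eye, kidney and muscle, were named in 4 of 5 cases. The share over all protein-coding genes was 3.9%, but these genes too were picked by hand with results known. The counts by group are therefore descriptions only. At Pax2, 7 regions held 530 ChIP and 79 input tags, Pax7 had 5 with 417 and 44, Pax3 had 5 with 416 and 50 and Pax6 had 3 with 132 and 21, whereas Pax8 had none. Of the 27 genes, only Pax2 had more bp in regions than Six3. In the eye and forebrain field, where Six3 and Six6 act, 2 of 4 genes were named. At Otx2, 3 regions held 310 ChIP and 32 input tags, and Lhx2 had 3 with 234 and 39. Rax and Hesx1 had none.

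All 4 kidney genes, which belong to the programme that Six2 works in, had exactly 1 region each, against the same 3.9% and with the same limit of a list picked by hand. Osr1, a marker of early kidney mesenchyme, had 151 ChIP and 10 input tags with a ratio of 15.1 (interval 7.99 to 32.1), and Sall1 had 97 and 16. At Wt1 there were 64 and 3, and at Gdnf, the ligand that draws out the ureteric bud, 50 and 7. The distance from the region to the 5′ end of the gene was 449 bp at Osr1, 3507 bp at Sall1, 4873 bp at Wt1 and 6992 bp at Gdnf. The Sall1 region did not overlap the gene, and the Gdnf region had a height of only 8.06. The Osr1 interval lay above the 7.46 of the rest of the list, but it is 1 of 11 such intervals and covers counting error only. Of the muscle regulators Myf5, Myf6, Myod1 and Myog, 0 of 4 had a region, a count that the share of 3.9% over all protein-coding genes does not set apart.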

How the data were processed

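H3K27me3 ChIP-seq of wild-type mouse rib chondrocytes was analysed from the processed region list of 1 ChIP library, called against 1 input library. The authors mapped the reads to mm9 with the DNAnexus mapper and called regions with QuEST. Versions and settings are not given in the sources used here. The deposited tag counts are whole numbers per region without normalization. The deposited signal height is the peak of the smoothed tag profile, the deposited ratio (tag enrichment) divides ChIP tags by input tags or by a floor of 9.20 input tags per kb, found from the values and used in 1541 regions, and the deposited q-values are on the −log10 scale. The labels and the methods of the paper name different ChIP kits and serum contents.

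Region length was taken as end minus start plus 1 and rows that repeat a region for several genes were counted once per region. Ratios were computed from the tag counts with 95% Clopper-Pearson intervals, checked on simulated data. No test between groups was run, since each group had 1 library. Gene ends were worked out from the listed distances. Of the 922 gene names, 912 matched RefSeq (GRCm38.p6) by symbol or synonym, 855 of them protein-coding. The genes named are the 5 of the Six-family, those sharing or neighbouring their regions within 100000 bp, and the network and marker lists. The neighbours of Six5 and Six4 were added after the values were seen. Members and lists were chosen with earlier results of these data known. Other members of the family, and 2 genes of the network list as first drawn up, are not reported here. Alternatives were overlap with the gene, a distance of at most 2500 bp to its 5′ end, a height of at least 10, a −log10 q-value at or above the median of 48.0 and merging within 3000 bp. The tools were scipy 1.17.1, pandas 2.3.3, numpy 2.4.6 and matplotlib 3.10.9 under Python 3.11.15.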

Additional observations from a re-analysis of the deposited data

How the results depend on the processing

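There were 7 regions at the Six-family genes. This number was 2 when a region had to overlap the gene, 4 when it had to lie within 2500 bp of a 5′ end and 0 at a height of 10 or more, where 0 of the 5 genes and no ratio remained. Each limit removes regions by its construction. Of the 27 network genes, 11 had a region, against 5 under the limit of 2500 bp and 3 under that on height. Over all protein-coding genes the shares fell too, from 3.9% to 2.2% and 0.708%. At Six3, the ratio was 6.71 from the overlapping region alone, with an interval of 3.02 to 17.6 that holds the main value of 9.30. Six2 had no overlapping region and so no ratio under that limit. Merging regions within 3000 bp raised the marked sequence at Six3 to 15662 bp, gaps and 1 unnamed region included. The other values stayed within the main interval or within 1.5 times the main count. The lack of replicates limits every value, and the unknown total depth limits the ratios.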
